A study of Homo sapiens with 14 samples.

Results

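KLF4 binding was examined at 10 genes of the heat shock response in BEAS-2B cells, an established line of human bronchial epithelium. The 10 genes were HSF1, HSPA1A, HSPA1B, HSPA8, HSPH1, DNAJB1, HSPB1, HSP90AA1, HSPD1 and HSPE1, out of 20033 annotated protein-coding genes. They were chosen by name as a classic set that responds to arsenite, without a KLF4 value in the rule, although earlier results of these data were known at the time. A KLF4 peak was counted for a gene when its summit lay between 10 kb upstream of the outermost annotated transcription start site (TSS) and 2 kb past the end of the gene. KLF4 ChIP-seq, in which DNA fragments crosslinked to KLF4 are pulled down with an antibody and sequenced, had 1 library in each of 4 conditions. These were WT control, WT As3+, Nrf2 KO control and Nrf2 KO As3+, and the As3+ cells received 1 µM trivalent arsenic for 6 h while control cells received none. Nrf2 KO cells carried a CRISPR-Cas9 lesion aimed at exon 2 of the Nrf2 gene and were colonies without detectable Nrf2 protein, and WT cells were colonies from the same editing that still made it. The methods do not say which colony was sequenced, so a difference between WT and KO cells cannot be told apart from a difference between colonies. No condition has a replicate, so the differences below could not be held against the spread between libraries and carry no p-value.

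The heat shock response raises the output of molecular chaperones when proteins unfold. Its main activator is HSF1, which under stress forms trimers and binds heat shock elements, short inverted repeats of the letters GAA and TTC, in the promoters of its targets. Arsenite reacts with protein thiols and is a long-known inducer of the response. KLF4 is a zinc finger transcription factor that prefers CACCC-like and GC-rich sequences, the same kind of DNA that fills many chaperone promoters.

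Promoter sequences from 250 bases before to 50 after a TSS were available for 9 of the 10 genes in RefSeq (GRCh38.p14), the exception being HSF1. Where a gene had several, the promoter nearest its canonical TSS was used, so that each gene counts with 1 promoter. Heat shock elements were searched as GAANNTTC or TTCNNGAA, each of which reads the same on both strands and counts as 2 units. Such an element lay in 7 of the 9 promoters, those of HSPA1A, HSPA1B, HSPA8, DNAJB1, HSPB1, HSP90AA1 and HSPD1, beside 13.5% of all 35116 promoters in the collection. Elements of 3 units in a row lay in the promoters of HSPA8, HSP90AA1 and HSPD1, beside 0.490% of all promoters. The stretches from 150 to 11 bases upstream of the TSS are shown for 4 genes because they hold the elements that the KLF4 peaks are set against below. They run 5′ to 3′ along the strand of each gene, with the heat shock element in capitals, and lie at chr6:31815393-31815532 (plus strand, HSPA1A), chr6:31827588-31827727 (plus, HSPA1B), chr19:14518408-14518547 (minus, DNAJB1) and chr14:102087055-102087194 (minus, HSP90AA1).
HSPA1A: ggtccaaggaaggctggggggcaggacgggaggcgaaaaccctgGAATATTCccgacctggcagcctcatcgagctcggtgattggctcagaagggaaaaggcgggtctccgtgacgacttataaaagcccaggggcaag
HSPA1B: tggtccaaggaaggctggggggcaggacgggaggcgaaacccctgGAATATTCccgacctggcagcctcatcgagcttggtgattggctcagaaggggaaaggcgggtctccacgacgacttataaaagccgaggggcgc
DNAJB1: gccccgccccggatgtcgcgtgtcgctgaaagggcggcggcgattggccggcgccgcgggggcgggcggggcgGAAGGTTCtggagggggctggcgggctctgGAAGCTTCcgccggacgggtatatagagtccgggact
HSP90AA1: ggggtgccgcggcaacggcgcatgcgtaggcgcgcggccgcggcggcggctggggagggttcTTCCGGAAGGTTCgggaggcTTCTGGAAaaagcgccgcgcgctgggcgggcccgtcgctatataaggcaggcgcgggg

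The elements of the other promoters are given as sites of 30 bases, since the longest run of units in the set is among them. They lie at chr11:123062345-123062374 and chr11:123062170-123062199 (minus strand, HSPA8), chr7:76302480-76302509 (plus, HSPB1) and chr2:197500061-197500090 (minus, HSPD1).
HSPA8 upstream: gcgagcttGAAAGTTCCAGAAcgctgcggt
HSPA8 near the TSS: cgggccccTTCTGGAAGGTTCtaagatagg
HSPB1: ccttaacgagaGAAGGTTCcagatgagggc
HSPD1: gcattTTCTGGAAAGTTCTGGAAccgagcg
The HSPD1 site had 4 units in a row, 245 to 228 bases upstream of its TSS. The site of HSPA1A and that of HSPA1B carried the same 8 capital letters, and the 2 promoters were identical in 277 of 301 aligned columns (92.0%). Only 62.7% of all possible 75-base reads within 1 kb of the HSPA1A TSS, and 62.6% for HSPA1B, occur once in the genome, against 98.3% to 100% for the other 8 genes. A KLF4 peak, or its absence, around either of these 2 starts is therefore uncertain. Where in this span the repeated reads lie was not worked out, and the printed stretches of the 2 genes differ at several bases. The KLF word (CCACACCC or CCACGCCC, both strands) lay in 1 of the 9 promoters, that of DNAJB1, beside 8.05% of all promoters. The GC box (CCGCCC, both strands) lay in 8 of 9, all but HSPH1, beside 45.0%. The HSPH1 promoter of the collection belongs to a start 484 bp upstream of the canonical one. Matches of different words may share bases, and a match is a description of letters and not a binding site.

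The 4 libraries differed widely in how many peaks were listed, and this touches every count below. The lists held 760 peaks in WT control, 29956 in WT As3+, 76768 in Nrf2 KO control and 140 in Nrf2 KO As3+ cells. Depth is known only through the peaks themselves. From the fold enrichment and p of a peak, the fragments over its summit and its local background were solved, and the lowest background was 1.90 fragments in WT control, 0.757 in WT As3+, 0.491 in Nrf2 KO control and 1.64 in Nrf2 KO As3+ cells. A median peak held 25, 10, 7 and 19 fragments over its summit in the same order. The short lists thus came from the libraries with the higher background, and the part of depth and of pull-down quality in the length of the lists was not tested.

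None of the 10 genes had a KLF4 peak in WT control or in Nrf2 KO As3+ cells, and all 10 had at least 1 in WT As3+ and in Nrf2 KO control cells. The same rule called 2.51% of all protein-coding genes in WT control, 66.5% in WT As3+, 81.0% in Nrf2 KO control and 0.439% in Nrf2 KO As3+ cells. In WT control and Nrf2 KO As3+ cells a count of 0 among 10 genes is therefore close to the share of all genes. Within 1 kb of the canonical TSS, 8 of 10 genes had a summit in WT As3+ cells (all but HSPA1A and HSPA1B), beside 49.3% of all genes, and 9 of 10 in Nrf2 KO control cells (all but HSPA1A), beside 63.6%. The other libraries again had 0 of 10 genes with a summit there, beside 0.694% of all genes in WT control and 0.180% in Nrf2 KO As3+ cells. With 10 genes, of which HSPD1 and HSPE1 share their peaks at the start, these shares stand above those of all genes as a description only.

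**Figure D1:**
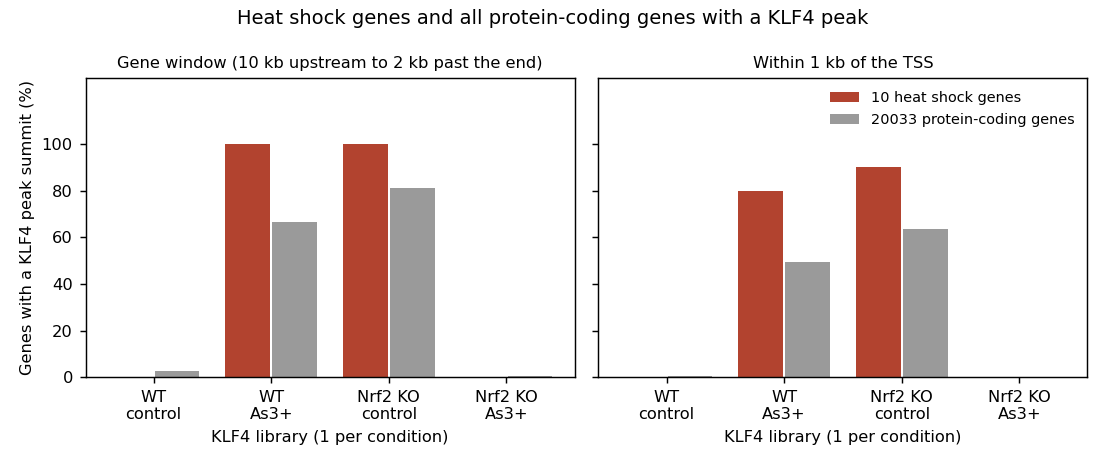
Share of genes with a KLF4 peak summit (y axis, percent) in the gene window (left) and within 1 kb of the TSS (right) for the 4 libraries on the x axis, for the 10 heat shock genes (red bars) and all 20033 protein-coding genes (grey bars). Both groups of genes had almost no peaks in WT control and Nrf2 KO As3+ cells, and in the other libraries the 10 genes stood at 80.0% to 100%.

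The peaks of the 10 windows came to 24 distinct intervals in WT As3+ and 54 in Nrf2 KO control cells, since HSPD1 and HSPE1 share some. A median of 2.5 peaks per window in WT As3+ cells stood beside 1 over all genes, and a median of 4.5 in Nrf2 KO control cells beside 2. The windows of DNAJB1, HSP90AA1 and HSPD1 are lengthened by distal starts. With the 10 kb counted from the canonical TSS, 18 and 40 peaks were left. No median over genes of like window length was worked out. The WT As3+ peaks held 7 to 26 fragments over the summit, with a median of 13.5, and 18 of the 24 lay above the library's median −log10 p. The Nrf2 KO control peaks held 4 to 19 fragments, with a median of 8, and 29 of the 54 lay above the median of that library. Their median percentile by −log10 p was 64.0 in WT As3+ and 51.4 in Nrf2 KO control cells, so the latter were ordinary peaks of their list. Scaled by the ratio of the lowest backgrounds, the 24 WT As3+ peaks would correspond to 17.6 to 65.4 fragments in the WT control library, where the listed peak with the fewest fragments had 10. The 54 Nrf2 KO control peaks would correspond to 13.3 to 63.3 fragments in the Nrf2 KO As3+ library, where that number was 10 as well. This scaling assumes that the lowest background follows depth. Its outcome was set by the lists and is not particular to these genes. The weakest peak of the whole list held 6.60 times the lowest background in WT As3+ and 8.14 times in Nrf2 KO control cells. In WT control and Nrf2 KO As3+ cells it held 5.25 and 6.11 times. Any peak of the long lists would thus pass, and whether depth accounts for the empty windows was not tested.

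**Figure D2:**
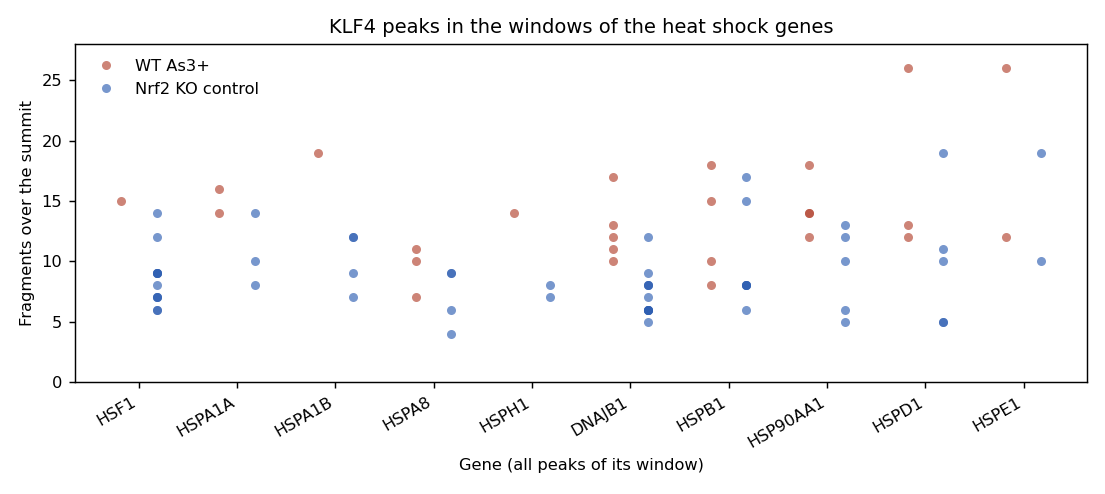
Fragments over the summit (y axis) of every KLF4 peak in the window of each gene (x axis) in WT As3+ (red points) and Nrf2 KO control cells (blue points). Darker points are peaks with equal values, and WT control and Nrf2 KO As3+ cells had no peak to plot. The highest points are the 26 and 19 fragments of the peak that HSPD1 and HSPE1 share.

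HSF1, the activator of the response, had 1 peak in WT As3+ cells and 12 in Nrf2 KO control cells, and none in the other libraries. The WT As3+ peak lay at chr8:144291664-144291910, with its summit in coding exon 1, 165 bp past the TSS, and had a fold enrichment of 5.86 with 15 fragments (95% counting interval 8.40 to 24.7). The Nrf2 KO control peak that overlaps it had 14 fragments at 351 bp past the TSS, in intron 1, with a fold enrichment of 5.77. A further Nrf2 KO control peak of 12 fragments lay 3314 bp into intron 1. The rest of the Nrf2 KO control peaks held 6 to 9 fragments and were spread from 6685 bp upstream, inside the neighbour BOP1, to 24853 bp past the TSS, beyond the gene's end and in the 3′ UTR of DGAT1. BOP1 starts 166 bp from HSF1 on the opposite strand, so the peak at the start cannot be assigned to either gene.

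HSPA1A and HSPA1B encode the stress-inducible HSP70 proteins, chaperones that are strongly induced by heat, and lie next to each other in the MHC region of chromosome 6. HSPA1A had 2 peaks in WT As3+ cells and 3 in Nrf2 KO control cells, and none with its summit within 1 kb of the TSS in any library. The nearest was at chr6:31814080-31814746 in WT As3+ cells, 1145 bp upstream and in intron 1 of HSPA1L, a divergent HSP70 gene that starts 260 bp away. It held 16 fragments with a fold enrichment of 5.45, and its counterpart in Nrf2 KO control cells, 1115 bp upstream, held 14 with a fold enrichment of 6.32. Both intervals reach to within 1 kb of the HSPA1A TSS, the Nrf2 KO control one to chr6:31815296. The other WT As3+ peak, 8743 bp upstream with 14 fragments, lay in exon 1 of LSM2 and belongs to the start of that gene. HSPA1B had 1 peak in WT As3+ cells, at chr6:31821356-31822086, which was 5824 bp upstream and held 19 fragments with a fold enrichment of 6.58. The overlapping Nrf2 KO control peak held 12 fragments with a fold enrichment of 4.53. Nrf2 KO control cells had a further HSPA1B peak of 12 fragments at the start itself, 39 bp upstream of the TSS, where no WT As3+ peak was listed.

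HSPA8 encodes the constitutive HSP70 of the cytosol and HSPH1 an HSP110 that acts as its nucleotide exchange factor. HSPA8 had 3 peaks in WT As3+ cells, all within 1 kb of the TSS, and 4 in Nrf2 KO control cells. In WT As3+ cells, 10 fragments lay 316 bp upstream, 11 fragments 222 bp past the TSS and 7 fragments 579 bp past it. The last of these was among the weakest of the list, at percentile 8.09. In Nrf2 KO control cells, 9 fragments lay 699 bp upstream, 9 fragments 183 bp upstream, 6 fragments 227 bp past the TSS and 4 fragments 1598 bp past it. The intron 1 summits of the 2 libraries were 5 bp apart. HSPH1 had 1 WT As3+ peak at chr13:31161265-31161991, with 14 fragments and a fold enrichment of 4.81 over exon 1, 74 bp past the TSS. Nrf2 KO control cells had no peak there, and their 2 HSPH1 peaks held 7 fragments at 908 bp and 8 fragments at 3331 bp past the TSS.

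DNAJB1 encodes the HSP40 that delivers unfolded clients to HSP70, and HSPB1 the small heat shock protein HSP27. The DNAJB1 start carried peaks on either side in WT As3+ cells. Of these, chr19:14517908-14518403 held 17 fragments (95% counting interval 9.90 to 27.2) at 297 bp past the TSS, with a fold enrichment of 8.66, which is the highest in the windows of the 10 genes. The other, chr19:14518639-14518845, held 10 fragments 385 bp upstream. Nrf2 KO control cells had 9 fragments 318 bp past the TSS, 12 fragments 234 bp upstream and 7 fragments 637 bp upstream. The remaining peaks counted for DNAJB1 lay at least 5210 bp upstream of this TSS, all of them inside a long minor transcript of the gene or upstream of its start. Among them are 2 WT As3+ peaks of 11 and 12 fragments that lie 359 bp upstream and 41 bp downstream of the TECR start.

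HSPB1 had 4 WT As3+ peaks and 7 Nrf2 KO control peaks. The strongest in WT As3+ cells lay 8070 bp upstream at chr7:76294407-76295049 with 18 fragments and a fold enrichment of 7.60, and HSPB1 was the nearest protein-coding start. Its counterpart in Nrf2 KO control cells, 8096 bp upstream, held 15 fragments with a fold enrichment of 8.21. Past the HSPB1 TSS, WT As3+ cells had 15 fragments at 446 bp, 10 at 762 bp and 8 at 1335 bp, and Nrf2 KO control cells had 17 at 246 bp, 8 at 883 bp and 8 at 1331 bp. All 4 WT As3+ peaks of HSPB1 overlapped a Nrf2 KO control peak.

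HSP90AA1 encodes the inducible HSP90 of the cytosol, which keeps kinases and receptors in a state ready for activation and holds HSF1 inactive in unstressed cells. In WT As3+ cells its main start was covered by a peak at chr14:102086754-102087101 with 14 fragments and a fold enrichment of 7.29, and another lay upstream at chr14:102087303-102087627 with 18 fragments and a fold enrichment of 7.84. Their summits were 44 bp past and 417 bp upstream of the TSS. Nrf2 KO control cells had only the former, with 10 fragments 16 bp past the TSS and a fold enrichment of 6.52, and no peak overlapped the upstream one. The other HSP90AA1 peaks lay at least 49336 bp upstream, and the stronger ones were around a distal start of the gene that neighbours the start of WDR20. There, WT As3+ cells had peaks of 14 and 12 fragments and Nrf2 KO control cells of 12 and 13.

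HSPD1 and HSPE1 encode HSP60 and HSP10, which form the folding chamber of mitochondria, and are read in opposite directions from starts 539 bp apart. The peak between the starts had the most fragments of the set in both libraries. In WT As3+ cells, chr2:197499618-197500191 held 26 fragments (95% counting interval 17.0 to 38.1) with a fold enrichment of 8.45, at percentile 97.2 of its list. In Nrf2 KO control cells, chr2:197499800-197500117 held 19 fragments (11.4 to 29.7) with a fold enrichment of 8.25, at percentile 98.6. The summits were 26 bp apart, 163 and 137 bp upstream of HSPD1, and the counting intervals overlap. On its flanks, WT As3+ cells had 12 fragments 112 bp past the HSPE1 TSS, and Nrf2 KO control cells had 10 fragments 205 bp past the HSPD1 TSS. A farther peak in the HSPD1 window lay at the start of MOB4, with 13 fragments in WT As3+ and 11 in Nrf2 KO control cells, and Nrf2 KO control cells had 2 more of 5 fragments each at 7853 and 18799 bp upstream of HSPD1.

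**Figure D3:**
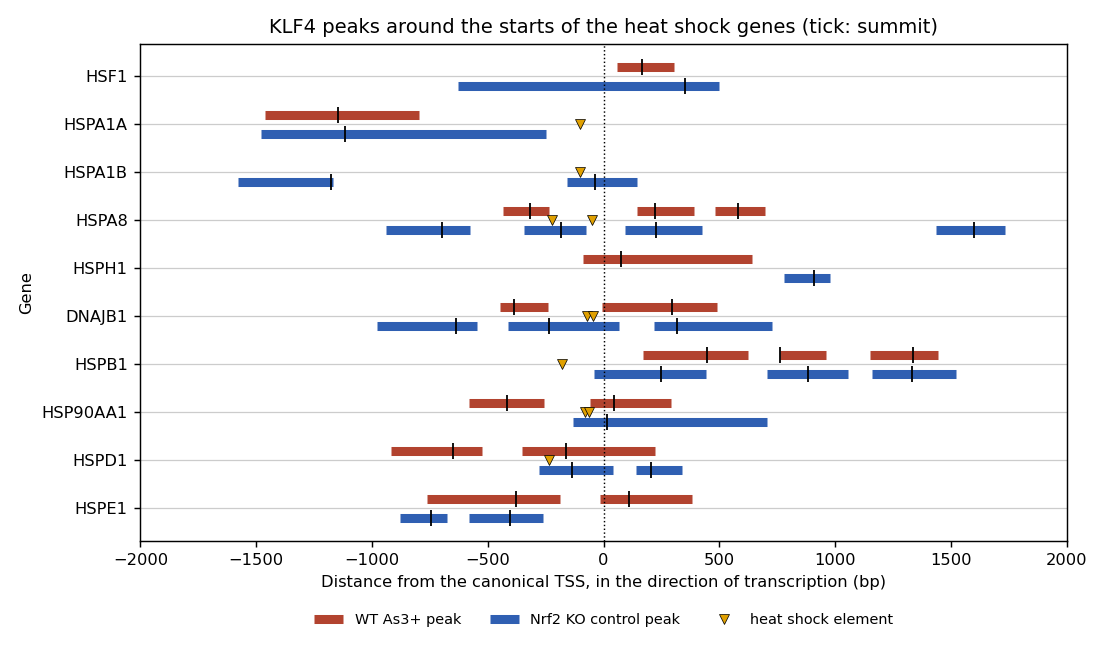
KLF4 peaks within 2 kb of the canonical TSS of each gene in WT As3+ (red) and Nrf2 KO control cells (blue), against the distance from the TSS in bp along the direction of transcription. Ticks mark summits and yellow triangles heat shock elements, so that DNAJB1 and HSP90AA1 show WT As3+ peaks on both sides of their elements.

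More than 1 summit near the start was common among these genes. At least 2 summits within 1 kb of the TSS were listed for 6 of the 10 genes in WT As3+ cells (HSPA8, DNAJB1, HSPB1, HSP90AA1, HSPD1 and HSPE1), beside 13.8% of all genes. In Nrf2 KO control cells this held for 5 (HSPA8, DNAJB1, HSPB1, HSPD1 and HSPE1), beside 23.3%. In both libraries HSPD1 and HSPE1 count through the same peaks, so they are not separate cases. This count was chosen after the positions had been seen.

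WT As3+ and Nrf2 KO control cells share neither treatment nor genotype, yet many peaks lay at the same places. Of the 24 WT As3+ peaks, 19 (79.2%) overlapped a Nrf2 KO control peak by at least 1 bp, beside 55.6% of all WT As3+ peaks. Of the 54 Nrf2 KO control peaks, 20 (37.0%) overlapped a WT As3+ peak, beside 21.7% of all. Nearness to a TSS moves with this overlap. Among peaks within 1 kb of a protein-coding TSS the shares were 15 of 20 (75.0%) for WT As3+ peaks of the 10 genes, beside 81.7% of all such peaks, and 16 of 20 (80.0%) for Nrf2 KO control peaks, beside 57.1%. Farther away, 4 of 4 WT As3+ peaks were shared, beside 38.8%, and 4 of 34 Nrf2 KO control peaks, beside 11.9%. The overlapping peaks formed 21 pairs, and a peak that overlaps more than 1 other counts in each of its pairs. WT As3+ cells had the higher number of fragments in 17 pairs (81.0%), beside 65.6% of all such pairs. The ratio of fragments, WT As3+ to Nrf2 KO control, had a median of 1.25 and ran from 0.833 to 2.60, and over all 18017 such pairs its median was 1.20. The fragments were not scaled for depth, and the 2 medians are close. The lowest background was 0.757 in WT As3+ and 0.491 in Nrf2 KO control cells, so which library is higher depends on scaling. Over the lowest background, the peak between HSPD1 and HSPE1 stood at 34.3 in WT As3+ and 38.7 in Nrf2 KO control cells, the reverse of its fragments. The DNAJB1 pair past the TSS kept its direction, at 22.4 and 18.3.

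The heat shock elements were set against the peaks. Of the 10 element sites in the promoters of the 7 genes, 7 were inside a Nrf2 KO control peak, beside 12.9% of 5017 such sites in all promoters. The 5017 sites come from every promoter of the collection, and the 10 only from promoters nearest a canonical TSS. At 100 bp upstream of the canonical TSS, Nrf2 KO control peaks covered 31.7% of all genes. In that library the 10 genes also had a summit near the start more often than all genes (9 of 10 beside 63.6%). In WT As3+ cells 1 of the 10 sites was inside a peak, that of HSPD1, which is close to the 9.01% of all sites. A site counted as inside when its middle lay in a peak, so a site just past an edge did not count. The upstream HSPA8 site, 92 bp from a WT As3+ summit, was such a site. Another was the HSP90AA1 site 108 bp from a WT As3+ summit. The 7 inside a Nrf2 KO control peak were both sites of DNAJB1, both of HSP90AA1, the upstream site of HSPA8, and those of HSPA1B and HSPD1. The sites of DNAJB1 lay in the same peak, as did those of HSP90AA1, so they are not separate cases. WT control and Nrf2 KO As3+ cells had 0 of 10 sites inside a peak, beside 0.0997% and 0.0199%. At DNAJB1 the nearest WT As3+ summits were 312 and 340 bp from the 2 elements shown above, and at HSP90AA1 they were 126 and 108 bp away. At HSPD1 the site of 4 units was 73 bp from the WT As3+ summit and 99 bp from the Nrf2 KO control summit. For the near-identical HSPA1A and HSPA1B elements, only that of HSPA1B was inside a Nrf2 KO control peak, and its nearest summit was 63 bp away. These positions are descriptions, and which protein occupied an element was not measured.

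The coverage of the starts describes the same peaks by position. At 100 bp upstream of the TSS a WT As3+ peak covered 1 of the 10 genes, beside 23.1% of all genes and 46.8% of genes with a summit within 1 kb. At 175 bp past the TSS it covered 8 of the 10, beside 27.8% and 56.3%. The counts of the 10 include HSPA1A and HSPA1B, which had no WT As3+ summit within 1 kb. The shares of 46.8% and 56.3% leave out such genes. In Nrf2 KO control cells the counts at these positions were 6 and 5 of the 10, beside 31.7% and 37.9% of all genes. The positions were picked after the profile had been seen, and with 10 genes a step of 1 gene is 10 percentage points.

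**Figure D4:**
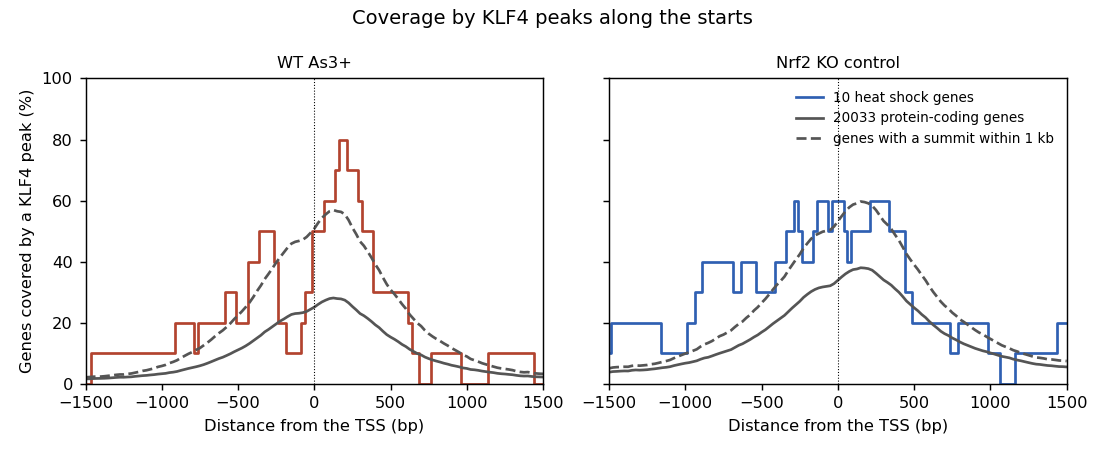
Share of genes covered by a KLF4 peak (y axis, percent) by distance from the canonical TSS in bp (x axis) in WT As3+ (left, red step line) and Nrf2 KO control cells (right, blue step line). Solid grey lines show all 20033 protein-coding genes and dashed grey lines genes with a summit within 1 kb. The step lines count all 10 genes, also those without such a summit. The red line falls to 1 of 10 genes at 100 bp upstream and reaches 8 of 10 at 175 bp past the TSS.

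The words found under the summits depended on how much sequence around the summit was read. In 200 bp around the summit, the GC box lay in 15 of 23 WT As3+ peaks (65.2%), that of HSF1 left out, beside 39.2% of all WT As3+ peaks. In 100 bp it lay in 26.1%, beside 24.4%. The median GC content of these windows was 68.2%, beside 64.7%. The KLF word lay in 1 of the 23 (4.35%), the upstream peak of HSP90AA1, beside 10.4%, whereas in whole peaks it lay in 7 (30.4%), beside 16.4%. A heat shock element lay in 2 of the 23 windows of 200 bp (8.70%), beside 5.60%. These windows were those at the upstream peak of HSPA8 and at the peak between HSPD1 and HSPE1. Of the 54 Nrf2 KO control peaks, the 12 of HSF1 were left out as well. In both libraries the shares of all peaks keep chromosome 8, where HSF1 lies. In 200 bp around the Nrf2 KO control summits the GC box lay in 12 of 42 peaks (28.6%), beside 27.2%. The KLF word lay in 3 (7.14%), beside 9.31%. A heat shock element lay in 8 of the 42 (19.0%), beside 5.31%. The AP-1 word (TGACTCA or TGAGTCA, which are reverse complements of each other) was in none of these 200 bp windows in either library, beside 4.34% of all WT As3+ and 2.54% of all Nrf2 KO control peaks.

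A wider set of 76 chaperone genes, grouped in 9 lists, was set beside the 10. In WT As3+ cells 53 of the 76 (69.7%) had a summit within 1 kb of the TSS, and in Nrf2 KO control cells 66 (86.8%), beside the 49.3% and 63.6% of all genes. In the gene window the counts were 60 and 74 of the 76, beside 66.5% and 81.0% of all genes. They were 1 in WT control and 0 in Nrf2 KO As3+ cells, which is close to the 2.51% and 0.439% of all genes. The gene with a WT control peak was DNAJB2, a J-domain protein best known from neurons, with 33 fragments and a fold enrichment of 3.89 at 7211 bp past its TSS. DNAJB2 also had the strongest start among the 76 in WT As3+ cells, with 30 fragments and a fold enrichment of 8.85 at 21 bp upstream, and 21 fragments in Nrf2 KO control cells.

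The lists differed among themselves. All 9 nucleotide exchange factors and other HSP70 co-chaperones had a summit at the TSS in both libraries, led in WT As3+ cells, by −log10 p here and below, by ST13 with 23 fragments and STUB1, the ubiquitin ligase CHIP, with 14. The HSP90 co-chaperones had 7 of 9 in WT As3+ and 8 of 9 in Nrf2 KO control cells, led by CDC37, which recruits kinases to HSP90, and STIP1, which links HSP70 to HSP90, with 19 fragments each. All 3 other HSP90 genes had a summit in both, among them TRAP1 of mitochondria with 17 fragments and HSP90B1 of the endoplasmic reticulum with 15. The chaperonin TRiC, which folds actin and tubulin, had 7 of 8 subunits in WT As3+ and 6 of 8 in Nrf2 KO control cells, with 14 fragments each at CCT6A and CCT4. Mitochondrial protein quality control had 6 of 7 and 7 of 7, led by the protease HTRA2 with 23 fragments and GRPEL1 with 16. The other J-domain proteins had 10 of 15 and 12 of 15, and DNAJA2, with 16 fragments in WT As3+ cells, had no Nrf2 KO control summit within 1 kb.

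In WT As3+ cells the lowest shares were those of the small heat shock proteins and of the other HSP70 and HSP110 genes, and the latter was close to that of all genes. Of 12 HSP70 and HSP110 genes, 6 had a summit in WT As3+ cells and all 12 in Nrf2 KO control cells. By −log10 p the strongest in WT As3+ cells were HSPA4L with 14 fragments and HSPA1L with the 16 already counted for HSPA1A. Of 9 small heat shock proteins, 2 had a summit in WT As3+ cells, IFT25 (formerly HSPB11) with 18 fragments and HSPB6 with 8, and 5 in Nrf2 KO control cells. Of the 4 heat shock factor genes beside HSF1, 3 had a summit in WT As3+ cells, among them HSF2 and HSF4 with 12 fragments each, and 4 in Nrf2 KO control cells. No difference between lists or libraries was tested.

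**Figure D5:**
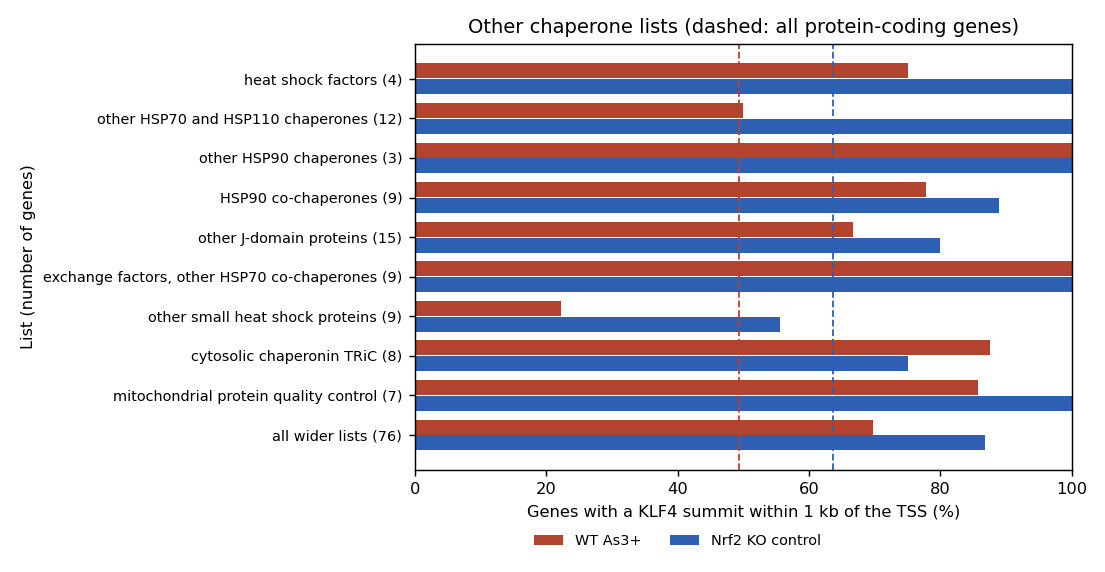
Share of the genes of each list with a KLF4 summit within 1 kb of the TSS (x axis, percent) in WT As3+ (red bars) and Nrf2 KO control cells (blue bars), with the number of genes in brackets and the share of all protein-coding genes as dashed lines. Small heat shock proteins stood below the dashed lines in both libraries, at 22.2% and 55.6%.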

How the data were processed

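KLF4 ChIP-seq of WT and Nrf2 KO BEAS-2B cells was analysed from 4 peak lists, 1 per condition. Libraries for H3K4me1, for H3K27Ac and of input DNA are not analysed here. The authors aligned 75-nt reads to GRCh38/hg38 with BWA at default settings, and the submitters' processing notes name bcl2fastq 2.17. The peak caller is not given in the sources used here. In each deposited list the authors give a fold enrichment (a ratio to local background), −log10 p and −log10 q at the summit, and a score that is 10 times the −log10 q rounded down. Tags were sampled to the smallest library for the density maps of the study, and whether this preceded peak calling is not stated.

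Fragments over a summit (n) and background (λ) were solved from fold = (n + 1)/(λ + 1) and an upper Poisson tail, with a misfit of at most 4.05e-04 in −log10 p. Intervals of fragments are exact Poisson intervals at 95% and cover counting error only. Tested on 2000 simulated peaks, this step recovered 100% of the counts. The window and overlap steps, each also tested on 2000 simulated cases, found 100% with 0% false. Genes came from GENCODE 44, and positions follow the canonical transcript. The 10 genes, the wider lists and the tests were chosen with earlier results of these data known. Named genes are the 10, their neighbours at a shared peak, the 2 genes of each wider list with the highest −log10 p at the TSS in WT As3+ cells, and wider-list genes with a peak in WT control or Nrf2 KO As3+ cells. Alternatives were stricter −log10 q, the 130 strongest peaks per list, other windows, TSS definitions, overlaps and word windows. Python 3.11.15, pandas 2.3.3, scipy 1.17.1, pysam 0.24.0, Biopython 1.88 and samtools 1.23.1 were used.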

Additional observations from a re-analysis of the deposited data

Results flagged for a closer look

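Opposite directions in the WT and Nrf2 KO cells drew attention to the counts of KLF4 peaks at the heat shock genes. The number of the 10 genes with a peak in the gene window, As3+ minus control, was 10 in WT cells and -10 in Nrf2 KO cells. The number of distinct peaks in these windows, As3+ minus control, was 24 in WT cells and -54 in Nrf2 KO cells. With 1 library per condition the difference was not tested. The share of all protein-coding genes with a peak moved the same way, from 2.51% to 66.5% in WT cells and from 81.0% to 0.439% in Nrf2 KO cells.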

How the results depend on the processing

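No paired analysis was possible because each condition has 1 library and no result comes from a test. Leaving out a library was not run either, since it would leave a condition empty. With the 130 strongest peaks of each list, as many as the shortest list holds, WT As3+ and Nrf2 KO control cells had 0 of the 10 genes with a peak in the window or at the TSS, 0 peaks in the windows and 0 of the 76 wider-list genes, and WT control also had 0 of the 76. This follows from the shorter lists, which then called 0.494% and 0.679% of all genes. With −log10 q held at 5 or more, the windows held 11 WT As3+ and 12 Nrf2 KO control peaks, 27 and 49 of the 76 wider-list genes had a peak, and 7 of the 11 WT As3+ peaks overlapped a Nrf2 KO control peak. At that threshold 9 and 8 of the 10 genes kept a peak in the window, beside 38.2% and 51.0% of all genes. The word counts that follow again leave out the HSF1 peaks. In 100 bp around the summit, the heat shock element was in 0 WT As3+ and 3 Nrf2 KO control peaks (beside 2.73% and 2.48% of all peaks), the GC box in 6 WT As3+ peaks (26.1%, beside 24.4%) and the KLF word in 1 Nrf2 KO control peak (2.38%, beside 5.06%). In whole peaks, the heat shock element was in 7 WT As3+ (30.4%, beside 10.3%) and 14 Nrf2 KO control peaks (33.3%, beside 9.16%). The KLF word was in 7 of each (30.4%, beside 16.4%, and 16.7%, beside 14.4%) and the AP-1 word in 1 of each (4.35%, beside 6.95%, and 2.38%, beside 4.17%). The other alternatives stayed within 1.5 times the reported counts. One of them, chosen after seeing the data, counted the 10 kb from the canonical TSS, which left 18 and 40 peaks. A peak below the listing threshold of its library cannot be seen at this depth.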

Other observations

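In the libraries without a peak in these windows, the nearest KLF4 peak to DNAJB1 lay 12371 bp past its TSS in WT control cells, with 29 fragments and a fold enrichment of 5.14, which is beyond the end of the window. For HSPB1 the nearest WT control peak lay 90392 bp past the TSS, with 23 fragments. For HSF1 the nearest Nrf2 KO As3+ peak lay 165950 bp upstream, with 27 fragments. HSPA4, an HSP110 gene outside the 10 that was named after its values were seen, had no WT As3+ peak in its window, while Nrf2 KO control cells had 5, of which 1 held 18 fragments at 171 bp past the TSS with a fold enrichment of 7.24.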
